A study of Mus musculus with 12 samples.

Results

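The genes that mark dendritic cells were followed through RNA-seq of the liver immune cell fraction of mice. They were chosen by name, as Flt3, Zbtb46, Xcr1, Clec9a, Batf3, Cd209a, Clec10a, Siglech, Tcf4 and Bst1, and all 10 were found among the 40840 genes of each library. WT mice were C57BL/6 and caspase-11-deficient mice were B6.129S4(D2)-Casp4tm1Yuan/J, written Casp11-/- here, in which Casp4 is disrupted in every cell. Male mice, 8 to 10 weeks old at the start, spent 12 weeks on a high-fat diet (HFD) or on normal chow (NCD). With 3 mice in each, the groups were WT-NCD and WT-HFD for the controls and Casp11-/- NCD and Casp11-/- HFD for the deficient mice. The fraction was enriched by density from digested whole liver and was not sorted for any dendritic cell type.

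Dendritic cells are the professional antigen-presenting cells of the immune system, and the receptor Flt3 and its ligand Flt3l drive their formation from bone marrow precursors. Conventional type 1 cells (cDC1) take up dead cells and cross-present their antigens to CD8 T cells. Conventional type 2 cells (cDC2) mainly present antigen to CD4 T cells, and plasmacytoid cells (pDC) are known for secreting type I interferon. In the liver all of these are minor populations beside Kupffer cells and lymphocytes.

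Values are TPM, a measure of transcript abundance, which are scaled to gene length and can be compared between genes. No value lay under a floor of 1.01 TPM, and while the labels state 30000000 reads of 75 bases for each sample, the values do not show how many were mapped in each library. The library WT-NCD replicate 3 stood apart. In it 39677 genes exceeded the floor, where 12940 to 18775 did in the other 11, and its correlation with them (Pearson's r of log2(TPM + 1) across genes, which are not independent replicates) was -0.27 to -0.07. It was left out of the tests, so WT-NCD rests on 2 libraries, and values with it are given where they matter. The transcript of the targeted gene, Casp4, was at 5.60 to 15.6 TPM in libraries labelled WT and at 2.56 to 15.2 TPM in those labelled Casp11-/-, and so did not separate the genotypes, which are used as labelled. Protein-coding genes took 22.3% to 42.4% of the TPM on NCD and 15.7% to 25.2% on HFD. Each comparison was therefore also made after protein-coding genes had been rescaled to one total, called the rescaled values. Summed markers of hepatocytes reached 6360 to 23813 TPM in the 11 libraries, although the fraction was meant to be depleted of them.

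The 3 stretches below are the 250 bases upstream of the listed start of Siglech and of Ccr9 and Klk1, 2 of the 3 genes whose pattern over the libraries was nearest to that of Siglech. They are shown because these genes moved together from library to library, as described further on. The sequences are RefSeq's, on GRCm38.p6, printed 5′ to 3′ on the gene's strand (plus for all of them), at chr7:55767934-55768183 for Siglech, chr9:123766961-123767210 for Ccr9 and chr7:44225110-44225359 for Klk1. Capitals mark the E-box CACCTG, or CAGGTG on the other strand, a form bound by E proteins, the family of Tcf4.
Siglech: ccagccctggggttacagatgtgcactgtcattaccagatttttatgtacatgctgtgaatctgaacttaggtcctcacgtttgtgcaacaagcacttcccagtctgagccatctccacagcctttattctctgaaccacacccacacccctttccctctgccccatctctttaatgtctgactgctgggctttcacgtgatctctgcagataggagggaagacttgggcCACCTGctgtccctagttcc
Ccr9: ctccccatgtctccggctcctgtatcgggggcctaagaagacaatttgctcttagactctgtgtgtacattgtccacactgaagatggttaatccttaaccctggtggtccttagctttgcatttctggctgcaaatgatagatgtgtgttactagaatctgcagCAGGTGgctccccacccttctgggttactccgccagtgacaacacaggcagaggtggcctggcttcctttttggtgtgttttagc
Klk1: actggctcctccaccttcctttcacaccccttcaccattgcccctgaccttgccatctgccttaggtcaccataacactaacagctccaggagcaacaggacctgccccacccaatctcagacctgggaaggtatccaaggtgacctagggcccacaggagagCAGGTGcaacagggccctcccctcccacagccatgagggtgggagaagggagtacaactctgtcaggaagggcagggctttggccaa
Each of these stretches held 1 such E-box, and 17.2% of 32851 upstream stretches of the same length held at least 1. Among the 7 members examined, Flt3, Xcr1, Clec9a, Batf3 and Cd209a did not hold it, and Zbtb46 also did. Its stretch (chr2:181424389-181424638) lies inside the gene, before the start of a shorter transcript. Both strands were searched, and a match is only a match of letters. Bst1, Tcf4 and Clec10a were not among the 7.

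The genes shared by the classes were described first. Flt3 encodes the cytokine receptor on dendritic cell precursors and their progeny, at chr5:147330741-147400489 on the minus strand of GRCm38. Flt3 was at 8.54 and 13.9 TPM in WT-NCD and at 5.40, 4.09 and 12.2 TPM in WT-HFD. It was at 14.2, 4.95 and 17.2 TPM in Casp11-/- NCD and at 4.14, 4.22 and 3.60 TPM in Casp11-/- HFD. All libraries of Casp11-/- HFD therefore lay below all those of Casp11-/- NCD, and the WT groups overlapped.

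Zbtb46, a transcription factor of conventional dendritic cells that is also expressed by endothelial cells, lies at chr2:181387762-181459426 on the minus strand. Zbtb46 was at 4.77 and 4.73 TPM in WT-NCD and at 6.71, 4.68 and 8.96 TPM in WT-HFD. In Casp11-/- NCD it was at 3.34, 2.72 and 11.7 TPM, and in Casp11-/- HFD at 6.01, 5.17 and 13.2 TPM. The groups overlapped in both genotypes, and the highest level was in Casp11-/- HFD replicate 3. The 8 markers of liver sinusoidal endothelial cells were also highest in that library, at a summed 1397 TPM against 536 and 580 TPM in the other libraries of its group, and their part in the Zbtb46 level was not tested.

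The cDC1 genes were Xcr1, the receptor of the chemokine Xcl1 (chr9:123852315-123862029, minus strand), Clec9a, a receptor for exposed actin of dead cells (chr6:129408862-129424763, plus strand), and Batf3, a transcription factor that cDC1 need to develop (chr1:191097847-191108945, plus strand). Xcr1 was at 9.63 and 13.1 TPM in WT-NCD, at 11.7, 8.41 and 16.5 TPM in WT-HFD, at 6.76, 3.58 and 23.7 TPM in Casp11-/- NCD and at 6.41, 5.30 and 6.25 TPM in Casp11-/- HFD. On HFD, each Casp11-/- library was below each WT library. Clec9a was at 10.03 and 10.02 TPM in WT-NCD and at 21.7, 13.3 and 34.0 TPM in WT-HFD, which did not overlap. Clec9a in Casp11-/- mice was at 10.5, 6.51 and 36.7 TPM on NCD and at 15.6, 13.1 and 14.3 TPM on HFD, and the single library at 36.7 TPM, replicate 3, lay above all the others. The annotation of Clec9a overlaps that of Clec1b on the same strand, so reads of these genes could have been shared.

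Batf3 was the lowest member on average in 3 of the 4 groups. It was at 3.08 and 4.82 TPM in WT-NCD, at 3.42, 1.01 and 6.85 TPM in WT-HFD, at 3.50, 2.37 and 8.92 TPM in Casp11-/- NCD and at 1.01, 2.20 and 3.38 TPM in Casp11-/- HFD. The values of 1.01 TPM were at the floor, and the groups overlapped in every comparison. Batf3 was at 18.7 TPM in WT-NCD replicate 3, where the other 9 members were between 1.01 and 8.97 TPM.

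The cDC2 genes were the C-type lectins Cd209a (chr8:3743397-3748984, minus strand) and Clec10a (chr11:70156197-70170834, plus strand), which bind glycans on antigens and are also found on some monocyte-derived cells. Both have close paralogs, the other Cd209 genes and Mgl2, so their values are uncertain to the extent that reads were split between copies. Cd209a was at 17.5 and 22.8 TPM in WT-NCD, at 19.6, 14.2 and 30.6 TPM in WT-HFD, at 41.6, 11.1 and 45.9 TPM in Casp11-/- NCD and at 13.1, 12.6 and 8.33 TPM in Casp11-/- HFD. Clec10a was at 4.46 and 9.18 TPM in WT-NCD, at 6.60, 5.55 and 11.2 TPM in WT-HFD, at 17.2, 1.96 and 10.1 TPM in Casp11-/- NCD and at 1.71, 4.77 and 1.43 TPM in Casp11-/- HFD. For both genes every Casp11-/- HFD library was below every WT-HFD library, while Casp11-/- NCD replicate 2 kept the Casp11-/- groups overlapping.

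The pDC genes were Siglech, a sialic acid-binding surface lectin (chr7:55768178-55778925, plus strand), and Tcf4, the E protein that sets pDC identity (chr18:69343356-69689079, plus strand). Siglech was at 8.0 and 10.3 TPM in WT-NCD and at 32.4, 21.2 and 51.0 TPM in WT-HFD, so the lowest HFD library was above the highest NCD library. In Casp11-/- NCD, Siglech was at 79.9, 2.82 and 10.2 TPM, and in Casp11-/- HFD at 20.4, 16.4 and 1.01 TPM. The Casp11-/- groups overlapped, as the NCD values of 2.82 and 10.2 TPM lay within the range on HFD, and they held both the highest and the lowest value of the 11 libraries, the lowest being at the floor. Siglech belongs to a family of related Siglec genes, between which reads could have been split.

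Tcf4 varied less. It was at 6.08 and 4.92 TPM in WT-NCD, at 9.31, 7.16 and 12.4 TPM in WT-HFD, at 9.09, 3.32 and 11.7 TPM in Casp11-/- NCD and at 7.42, 6.06 and 8.96 TPM in Casp11-/- HFD. The WT groups did not overlap and the Casp11-/- groups did. Tcf4 is also expressed outside the pDC lineage, in B cells and stromal cells among others.

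Bst1, listed with the pDC genes, encodes the cell-surface enzyme CD157 of bone marrow stromal and myeloid cells and is a different gene from Bst2, the pDC antigen PDCA-1. It lies at chr5:43818885-43843986 on the plus strand and overlaps Fbxl5 on the opposite strand. Bst1 was at 3.93 and 13.7 TPM in WT-NCD, at 3.96, 2.71 and 5.24 TPM in WT-HFD, at 3.83, 1.10 and 6.72 TPM in Casp11-/- NCD and at 1.60, 19.4 and 1.75 TPM in Casp11-/- HFD. Its highest library, Casp11-/- HFD replicate 2, was not the highest for Siglech or Tcf4. The summed level of 8 neutrophil markers in that library was 4240 TPM, against 107.5 and 229 TPM in the other libraries of the group. That of 7 monocyte markers was 722 TPM, against 227 and 209 TPM. In WT-NCD replicate 2, the next highest for Bst1, the neutrophil sum was 890 TPM and the monocyte sum 1566 TPM. In WT-NCD replicate 1 these sums were 959 and 530 TPM. The part of either cell type in the Bst1 level was not tested. Bst1 is therefore reported with the pDC genes only as listed.

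**Figure D1:**
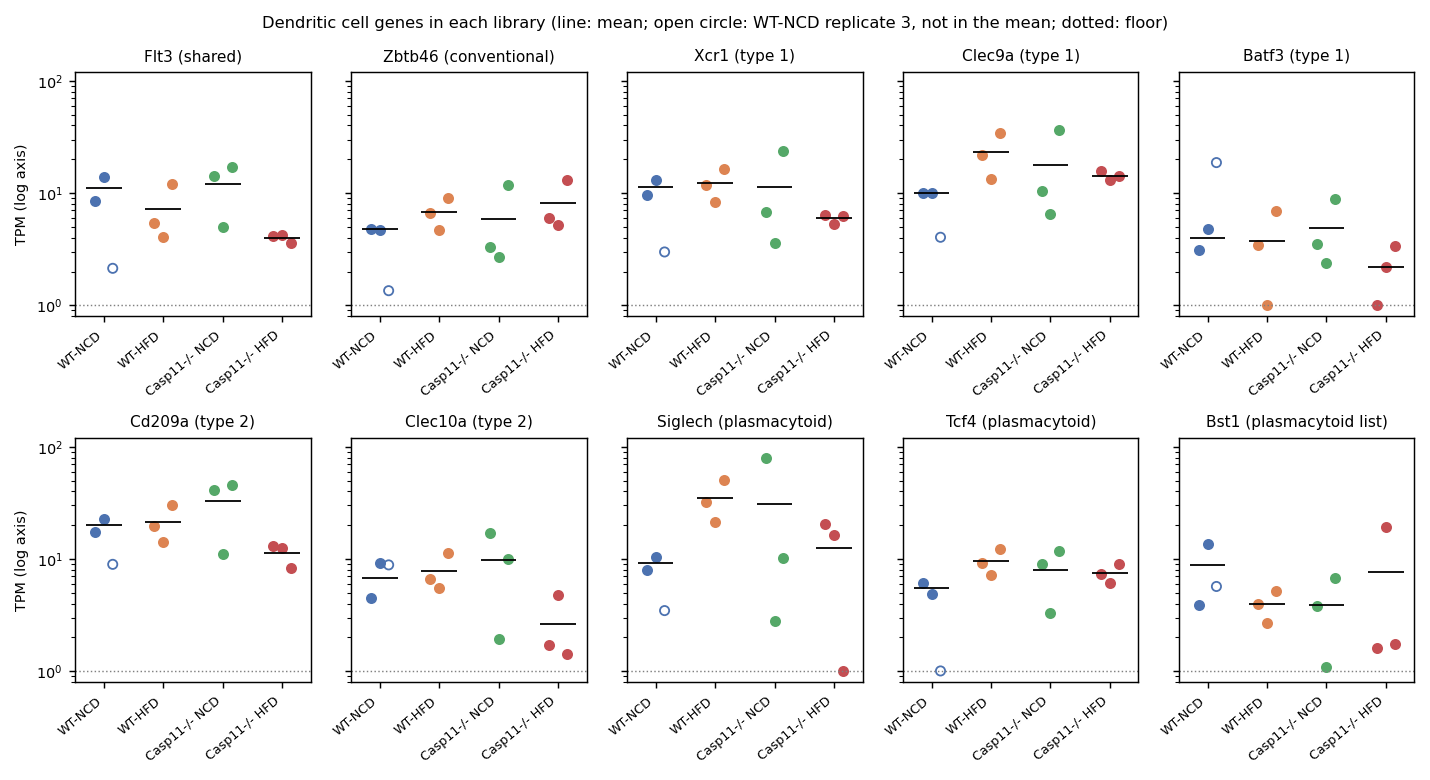
TPM of the 10 dendritic cell genes on a log axis, 1 point per library in the 4 genotype-diet groups, with the group mean as a line and the floor of 1.01 TPM dotted. The open circle is WT-NCD replicate 3, which is not in the mean. In WT mice, the HFD points of Clec9a, Siglech and Tcf4 lie above the NCD points, and in Casp11-/- mice all HFD points of Flt3 lie below the NCD points.

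The members rose and fell largely together between the libraries of WT-HFD and between those of Casp11-/- NCD. In the other groups no library was the lowest or the highest in more than 7 of 10 members. WT-HFD replicate 3 held the highest and WT-HFD replicate 2 the lowest level of its group in 10 of 10 members, and Casp11-/- NCD replicate 2 held the lowest in 10 of 10. The last of these had 22.3% of its TPM in protein-coding genes against 36.7% and 42.4% in the other libraries of its group. Its 8 hepatocyte markers summed to 16612 TPM against 6360 and 6795 TPM, and its 8 B cell markers to 524 TPM against 1933 and 2080 TPM. On the rescaled values, WT-HFD replicate 3 remained the highest in 10 of 10, while Casp11-/- NCD replicate 2 was the lowest in 7 of 10 and WT-HFD replicate 2 in 2 of 10.

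The order of the members by mean TPM differed between groups. Cd209a led in WT-NCD at 20.1 ± 3.78 TPM (SD, n = 2) and in Casp11-/- NCD at 32.8 ± 19.0 TPM (SD, n = 3). Siglech led in WT-HFD at 34.9 ± 15.1 TPM (SD, n = 3), and Clec9a led in Casp11-/- HFD at 14.3 ± 1.27 TPM (SD, n = 3). Of the 36 pairs of neighbours in the orders of the 4 groups, 5 were separated by more than the larger SD of the pair, so most ranks cannot be told from the next.

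Summed by class, the levels were 12.5 to 69.4 TPM for the cDC1 genes, 9.77 to 58.8 TPM for the cDC2 genes and 7.24 to 92.9 TPM for the pDC genes over the 11 libraries. The ratio of the highest to the lowest sum was 5.57 for cDC1, 6.02 for cDC2 and 12.8 for pDC. The pDC genes were the largest class in 6 of the 11 libraries, among them all 3 of WT-HFD. Their share of the sum of the classes was 40.9% to 42.3% in WT-HFD, against 28.7% and 32.6% in WT-NCD. In Casp11-/- mice it was 25.8% to 52.5% on HFD and 18.6% to 53.9% on NCD. The share of the cDC2 genes was 35.0% and 36.0% in WT-NCD and 34.1% to 39.8% in Casp11-/- NCD, but 24.1% to 26.8% in WT-HFD and 21.5% to 22.1% in Casp11-/- HFD, so it was lower in each HFD library than in each NCD library. In WT mice the cDC2 sum itself overlapped between the diets, at 21.9 and 32.0 TPM on NCD and 19.7 to 41.8 TPM on HFD, while the rescaled sums were higher on HFD, at 17.8 and 23.4 against 29.5 to 45.9. The mean sums on HFD and NCD were 39.0 and 25.3 TPM for the cDC1 genes and 48.5 and 23.5 TPM for the pDC genes. In Casp11-/- mice the cDC2 sum was 13.03 to 58.8 TPM on NCD and 9.77 to 17.4 TPM on HFD, which overlapped. The pDC sums include Bst1, which made up much of that of Casp11-/- HFD replicate 2. With Bst1 left out, an alternative chosen after seeing the data, the cDC2 share was 37.3% and 42.5% in WT-NCD, 34.9% to 41.2% in Casp11-/- NCD, 25.0% to 27.8% in WT-HFD and 22.4% to 28.7% in Casp11-/- HFD. These shares are ratios within a library and do not depend on the rescaling. They were not tested, and in a bulk fraction fewer cells of a type cannot be told apart from less RNA per cell.

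**Figure D2:**
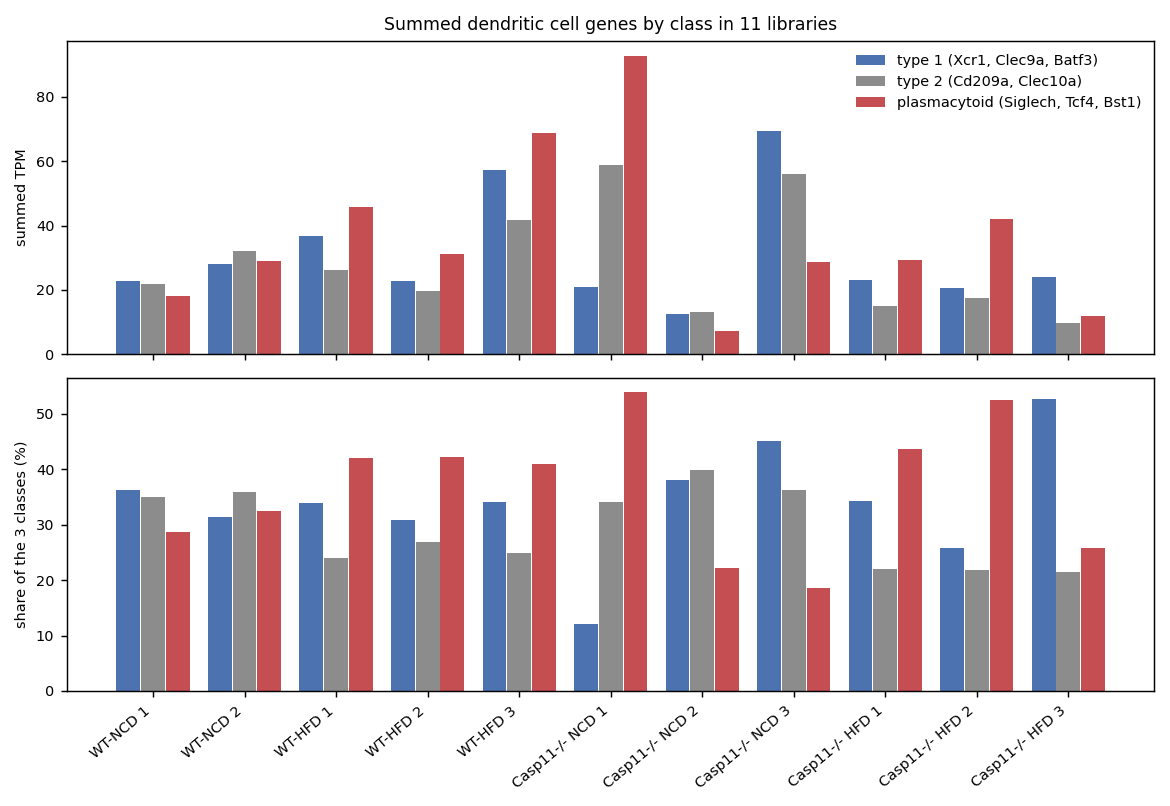
Summed TPM of the cDC1, cDC2 and pDC genes in each of the 11 libraries (upper panel) and the share of each class in their sum, in percent (lower panel), with Bst1 counted among the pDC genes. Bars stand for single libraries, and the grey cDC2 share is below 27% in every HFD library and above 34% in every NCD library, while the pDC share ranges from 18.6% to 53.9% within Casp11-/- NCD.

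The effect of the diet in WT mice was tested first. Siglech and Clec9a were the members with the largest differences, higher on HFD by 1.74 (SE 0.915, adjusted p 0.364) and 1.03 (SE 0.593, adjusted p 0.377) on the log2(TPM + 1) scale, on which changes of low genes are understated. Tcf4 was higher by 0.68 (SE 0.542), and the estimates of Zbtb46, Clec10a, Xcr1 and Cd209a were between 0.03 and 0.40. Batf3, Flt3 and Bst1 had estimates of -0.24, -0.66 and -0.81. No member passed an adjusted p of 0.05 by limma, where 2.18% of the 17950 genes tested did, and 0 members had an unadjusted p under 0.05, where 15.2% of genes did.

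Clec9a, Siglech and Tcf4, 3 of 10 members, had all WT-HFD libraries above all WT-NCD libraries, where 14.3% of all genes had the same order. With WT-NCD replicate 3 included, the same 3 members remained so, where 1.98% of genes were. As that library stood apart from all the others, its values can set this order by themselves. Tcf4 was at the floor in it, at 1.01 TPM, and nothing is concluded from the 3 members remaining. The median difference was 0.06 for the cDC1 genes, 0.11 for the cDC2 genes and 0.68 for the pDC genes, against -0.27 over all genes tested. After rescaling, the median of all genes moved to 0.08, and 7 of 10 members did not overlap in this direction, where 31.8% of genes did not. Clec9a was then higher by 1.72 (SE 0.419, adjusted p 0.0751), Tcf4 by 1.33 (SE 0.313, adjusted p 0.0687) and Siglech by 2.44 (SE 1.06, adjusted p 0.250). These 3 estimates remained short of the threshold, and 0 members were called where 0.809% of genes were.

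In the same comparison, the 8 Kupffer cell markers all had positive estimates and 6 passed the test, with summed levels of 58.0 and 60.9 TPM in WT-NCD and 256 to 712 TPM in WT-HFD. The 8 B cell markers all had negative estimates and 5 passed, with sums of 1531 and 1701 TPM against 154 to 371 TPM. The part of this shift in the levels of the dendritic cell genes was not tested.

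Among Casp11-/- mice, the members with the largest differences by diet were Clec10a, Cd209a and Flt3, lower on HFD by log2 values of -1.32 (SE 0.583, adjusted p 0.163), -1.25 (SE 0.515, adjusted p 0.151) and -1.25 (SE 0.513, adjusted p 0.151). Batf3, Siglech and Xcr1 had estimates of -0.81, -0.74 and -0.46, and Tcf4, Clec9a, Bst1 and Zbtb46 had estimates of 0.03, 0.05, 0.30 and 0.53. No member passed the adjusted threshold, where 1.1% of genes did, and 3 of 10 had an unadjusted p under 0.05, where 27% of genes did. Without Casp11-/- NCD replicate 2, the library lowest in all members, Flt3 (-1.74, adjusted p 0.00752), Cd209a (-1.88, adjusted p 0.00453) and Clec10a (-2.08, adjusted p 0.00637) passed, in a fit in which the number of genes called went from 198 to 8767 and 46.1% of genes were called lower.

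Flt3 was the only one of the 10 members with no overlap between the Casp11-/- groups, with the HFD libraries lower, as in 16.4% of all genes. The cDC2 genes had a median difference of -1.29, against -0.46 for cDC1, 0.03 for pDC and -0.51 over all genes. After rescaling the medians were -0.77, 0.07, 0.57 and -0.19, and Flt3 was at -0.73 (SE 0.323, adjusted p 0.184). Siglech differed most between libraries, and its estimate turned to 0.47 without Casp11-/- NCD replicate 1 and to 0.35 without Casp11-/- HFD replicate 3. No direction is therefore given for it. All 8 B cell markers were lower and 6 passed, all 8 Kupffer cell markers were higher and 4 passed, and all 8 sinusoidal endothelial markers were higher and 1 passed. Their part in the differences of the dendritic cell genes was not tested.

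Over both genotypes together, the diet difference of Flt3 was -0.95 (SE 0.385, adjusted p 0.0778) on the values as deposited. No member passed, where 18.3% of all genes did, and 1 had an unadjusted p under 0.05, where 36.8% of genes did. Without Casp11-/- NCD replicate 2, Flt3 (-1.20, adjusted p 0.00526), Cd209a (-0.92, adjusted p 0.0123) and Clec10a (-0.95, adjusted p 0.0306) passed, but 45.8% of all genes were then called lower. Without WT-HFD replicate 3, Flt3 passed (-1.15, adjusted p 0.0407), where 20.8% of genes were called lower. On the rescaled values Clec9a rose on HFD by 1.16 (SE 0.281, adjusted p 0.0204), Tcf4 by 0.95 (SE 0.210, adjusted p 0.0144) and Zbtb46 by 1.03 (SE 0.278, adjusted p 0.0307), and these 3 of 10 members stood beside 7.45% of genes called higher. Without the rescaling their estimates were 0.54, 0.36 and 0.46. The 3 calls therefore hold relative to other protein-coding genes and not on the values as deposited. The 8 endothelial markers were all higher on HFD on either scale, and 5 passed as deposited and 7 after rescaling. Their part in the values of Zbtb46 was not tested.

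The genotypes were compared within each diet. On HFD, all the cDC1 and cDC2 genes had lower estimates in Casp11-/- mice, with -0.88 for Xcr1, -0.56 for Clec9a, -0.44 for Batf3, -0.82 (SE 0.515) for Cd209a and -1.33 (SE 0.583, unadjusted p 0.0311) for Clec10a. Siglech had the largest estimate, -1.90 (SE 0.818, unadjusted p 0.0292), which moved between -2.51 and -0.81 as single libraries were left out. The estimates of Flt3 and Tcf4 were -0.60 and -0.31, and those of Bst1 and Zbtb46 were 0.12 and 0.16. Every adjusted p was 1, no member and no gene of the 17950 was called (0%), and 2 of 10 members had an unadjusted p under 0.05, where 135 genes (0.752%) did. That count was 0 without WT-HFD replicate 3, which held the highest level of its group in every member, and 0 without Casp11-/- HFD replicate 3, with no trend of the spread on the mean, with genes above the floor in 1 library or more, or with WT-NCD replicate 3 in the fit. In the other settings it was between 1 and 3. After rescaling it was 3, where 2.51% of genes had such a p. These were Clec10a (unadjusted p 0.00998), Cd209a (0.0260) and Xcr1 (0.0283), while Siglech was at 0.0590. No member was called on that scale either, where 0% of genes were.

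Xcr1, Cd209a, Clec10a and Siglech, 4 of 10 members, had all Casp11-/- HFD libraries below all WT-HFD libraries, where 3.11% of genes had the same order. After rescaling, Flt3 and Clec9a joined them to make 6 of 10, where 7.67% of genes did so. The median difference was -0.56 for cDC1, -1.08 for cDC2 and -0.31 for pDC, against -0.04 over all genes. The 8 Kupffer cell markers also all had lower estimates in Casp11-/- HFD, with sums of 231 to 370 TPM against 256 to 712 TPM, and none passed. Of the 9 T and NK cell markers, 8 had lower estimates (median -0.49), while all 8 sinusoidal endothelial markers (median 0.63) and 7 of 8 hepatocyte markers (median 0.32) had higher ones, and none of these passed either. The part of these shifts in the lower dendritic cell genes was not tested.

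On NCD, the estimates of Casp11-/- against WT ranged from -0.99 (SE 0.735) for Bst1 to 0.58 (SE 0.915) for Siglech. No member passed, where 0.0557% of genes did, none had an unadjusted p under 0.05, where 3.24% of genes did, and no member separated the groups, where 4.72% of genes were higher and 2.64% lower without overlap. The interaction, which asks whether the diet difference itself differed between the genotypes, was most negative for Siglech at -2.48 (SE 1.23, unadjusted p 0.0543), then for Clec10a at -1.51 (SE 0.875) and Cd209a at -1.28 (SE 0.772). It was positive for Bst1 at 1.11 (SE 0.987) and for Zbtb46 at 0.13 (SE 0.785). No member was called, where 0.00557% of genes (1 gene) were, and 0 members had an unadjusted p under 0.05, where 2.6% of genes did. On the rescaled values the interaction was -1.44 for Cd209a (SE 0.511, unadjusted p 0.0148) and -1.68 for Clec10a (SE 0.708, unadjusted p 0.0339), with an adjusted p of 0.881 for both. A different response of these genes to the diet in the genotypes was therefore not shown.

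**Figure D3:**
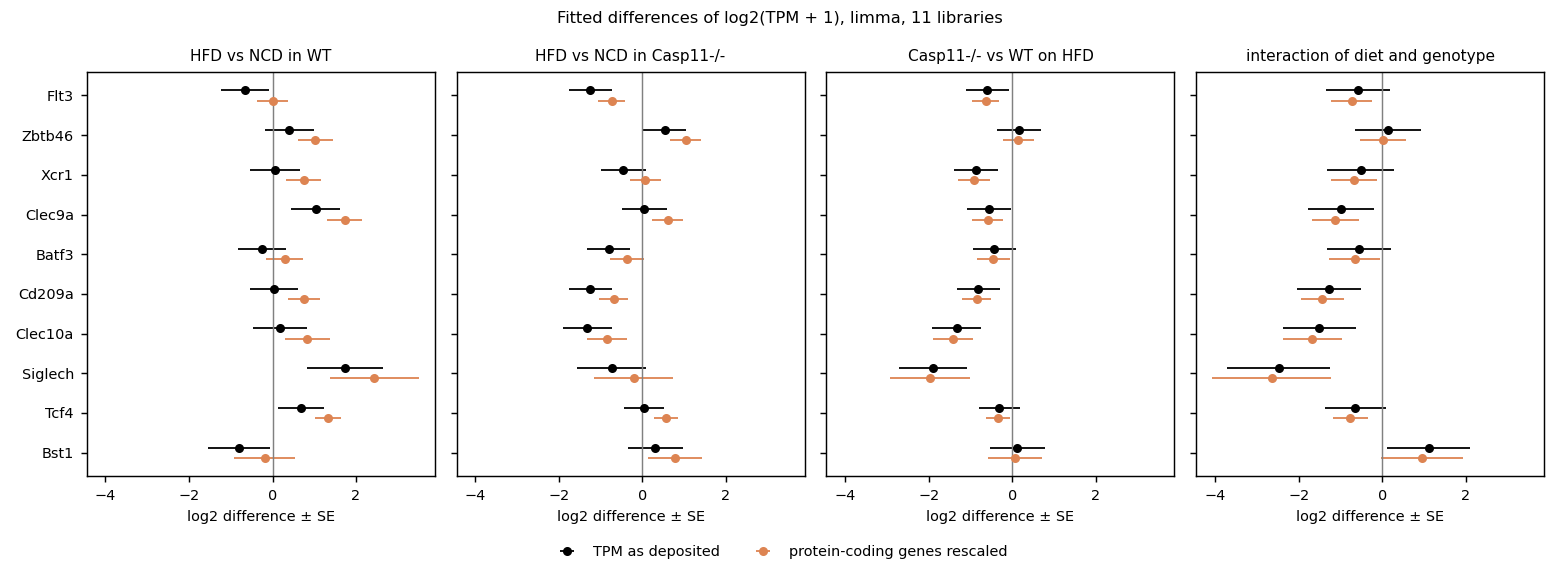
Estimated differences of log2(TPM + 1) with their SE for the 10 genes, from limma on 11 libraries, for the diet in WT mice, the diet in Casp11-/- mice, the genotypes on HFD, and the interaction. Black points are TPM as deposited and orange points the rescaled values. Rescaling shifts the diet differences upwards, for example that of Clec9a in WT mice from 1.03 to 1.72, and leaves those between the genotypes on HFD nearly in place.

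The pattern of Siglech was nearest to those of Ccr9, Klk1 and Cox6a2, with root mean square differences of 0.502, 0.519 and 0.585 between centred log2(TPM + 1) values over 11 libraries, where the median over 12368 protein-coding genes was 1.54. Ccr9 encodes the chemokine receptor that pDC use to home to the gut, Klk1 a tissue kallikrein and Cox6a2 a subunit of cytochrome c oxidase, and all 3 were on the list of other pDC genes. Ccr9 was at 3.90 and 4.89 TPM in WT-NCD, at 12.2, 9.44 and 19.4 TPM in WT-HFD, at 31.1, 2.40 and 4.28 TPM in Casp11-/- NCD and at 6.32, 6.46 and 1.24 TPM in Casp11-/- HFD. Klk1 was at 6.50 and 16.0 TPM, at 22.9, 14.03 and 36.6 TPM, at 66.4, 2.28 and 3.93 TPM and at 7.19, 9.02 and 1.01 TPM in the same groups. Cox6a2 was at 4.77 and 7.13 TPM, at 12.1, 10.3 and 16.9 TPM, at 29.7, 2.75 and 6.49 TPM and at 18.2, 4.62 and 1.01 TPM. The genes shared their highest library, Casp11-/- NCD replicate 1, and their lowest, Casp11-/- HFD replicate 3. As the 3 genes were picked for closeness to Siglech over these same libraries, this follows largely from the choice. The same genes carry the E-box matches printed above, Cox6a2 aside, which had no sequence shown.

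**Figure D4:**
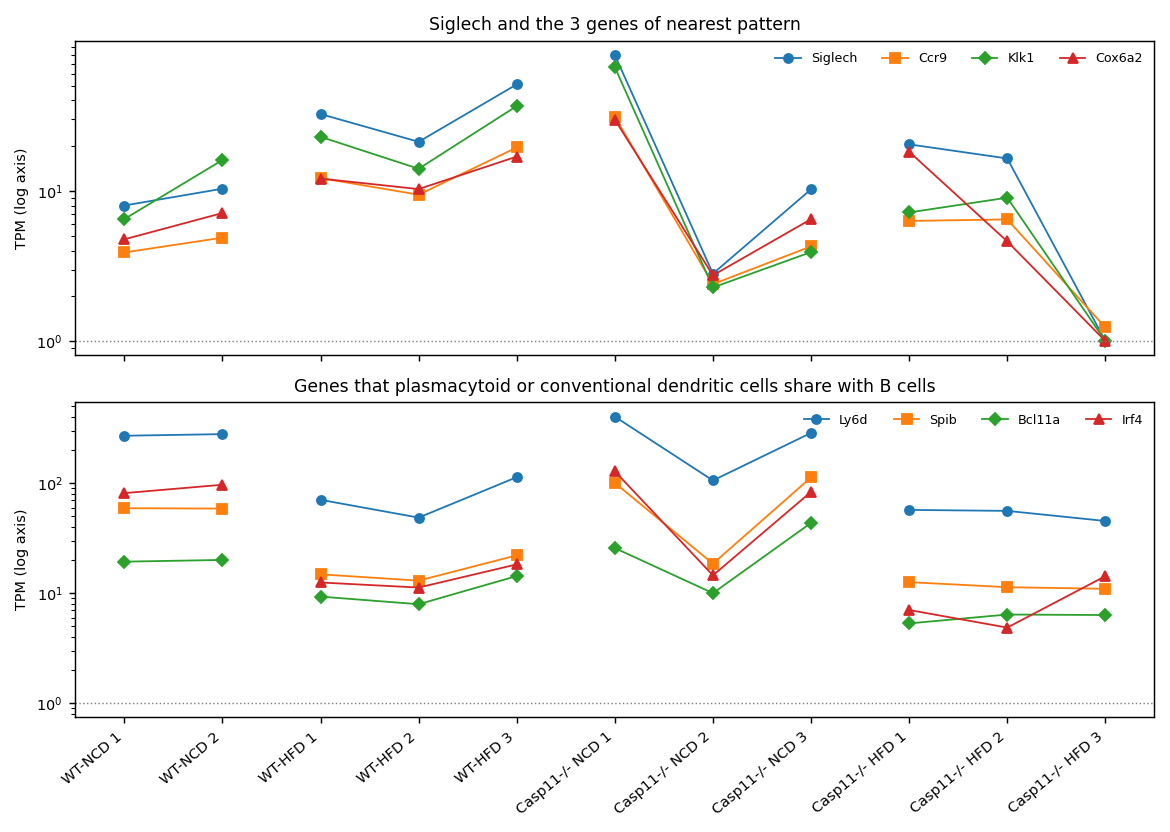
TPM on a log axis in the 11 libraries for Siglech, Ccr9, Klk1 and Cox6a2 (upper panel) and for Ly6d, Spib, Bcl11a and Irf4 (lower panel), with lines joining libraries of one group and the floor dotted. The upper genes peak in Casp11-/- NCD replicate 1, Siglech at 79.9 TPM, and reach their lowest in Casp11-/- HFD replicate 3, while the lower genes are lower on HFD than on NCD within each genotype, Ly6d at 45.4 to 57.3 TPM against 106 to 404 TPM in Casp11-/- mice.

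The members of the other classes varied less between libraries, and the distances between them and other genes were smaller. Flt3 was nearest to Syngr2, Abracl and Cdk6 at 0.154 to 0.186, where the median over all genes was 0.487. Xcr1 was nearest to Ifi211, Mindy2 and Gcsam at 0.230 to 0.242, with a median of 0.648, and Cd209a to Prkca, Spns3 and Abracl at 0.212 to 0.215, with a median of 0.559. None of these nearest genes, from Syngr2 to Spns3, was on the lists of dendritic cell genes used here, which are not complete.

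A wider list held 58 further genes of dendritic cells. In WT mice only Irf4, a transcription factor of cDC2 that B and plasma cells also use, passed, with a log2 difference of -2.61 on HFD (SE 0.664, adjusted p 0.0327), beside 2.04% of all genes called lower. Irf4 no longer passed after rescaling (-1.89, adjusted p 0.134) or with WT-NCD replicate 3 (-1.08, adjusted p 0.612). In Casp11-/- mice Irf4 (-2.63), Ly6d (-2.11) and Spib (-2.27) passed, all lower on HFD, beside 0.986% of all genes. Ly6d, a surface protein, and Spib, a transcription factor, are known in pDC and in B cells. Ly6d was at 271 and 280 TPM in WT-NCD, at 70.7, 48.7 and 114 TPM in WT-HFD, at 404, 106 and 287 TPM in Casp11-/- NCD and at 57.3, 56.1 and 45.4 TPM in Casp11-/- HFD. Ly6d was above Siglech in each of the 11 libraries. Within each genotype its HFD libraries lay below its NCD libraries, an order that 40.3% of all genes had in WT mice and 16.4% in Casp11-/- mice. The summed B cell markers had the same order, and their part in the Ly6d level was not tested.

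Over both genotypes, 18 of the 58 genes fell on HFD and 0 rose as deposited, beside 17.3% of all genes falling. With WT-NCD replicate 3 in the fit, 0 of the 58 passed in each comparison, those of the diet in either genotype included. The 18 that fell as deposited included 4 of 12 cDC1 genes (Cd24a, Irf8, Naaa and Wdfy4). They also included 4 of 10 cDC2 genes (Ccr6, Cd7, Irf4 and Notch2) and 4 of 15 pDC genes (Bcl11a, Ly6d, Spib and Tlr9). The others were 4 of 12 genes of mature cells (Ccl17, Ccr7, Cd40 and Cd83) and 2 of 9 shared genes (Ciita and Flt3l). Several of them, such as Cd24a, Bcl11a, Ly6d, Spib, Ciita, Cd40 and Irf4, are also expressed by B cells, and all 8 B cell markers fell in this comparison. Others, such as Cd7 and Ccr7, are also expressed by T cells, and 7 of the 9 T and NK cell markers fell (median -1.33 over the 9). The part of either cell type in these changes was not tested. Flt3l, the ligand of Flt3, fell by 1.18 on the log2 scale (SE 0.377, adjusted p 0.0357), but was at -0.62 (adjusted p 0.0648) after rescaling. Irf8, a transcription factor of cDC1, pDC and B cells, fell by 1.15 (adjusted p 0.0432) and was at -0.50 (adjusted p 0.171) after rescaling. Ccr7, the receptor that guides mature cells to lymph nodes, fell by 2.03 (adjusted p 0.00229) and by 1.38 (adjusted p 0.0133) after rescaling.

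After rescaling, 9 of the 58 genes fell and 5 rose over both genotypes, in log2 units below, beside 6.27% and 7.45% of genes. The 5 that rose were Cadm1 (0.77), an adhesion molecule of cDC1, Tlr3 (0.997), a receptor for double-stranded RNA, Bst2 (0.81), the interferon-induced pDC antigen, Dpp4 (1.40), a surface peptidase, and Kit (1.14), a cytokine receptor. In WT mice alone Cadm1 rose by 1.07 (adjusted p 0.0442). Without the rescaling none of these 5 passed. The remaining genes set out for description had diet estimates over both genotypes, as deposited, of -0.51 for Itgax, the integrin subunit CD11c, -0.29 for Sirpa, a cDC2 surface receptor, -0.41 for Mgl2, a C-type lectin, and -0.88 for Xcl1, the ligand of Xcr1. Those of the pDC transcription factors Irf7 and Runx2 were 0.01 and -0.49, and Bcl11a fell by 1.32 (adjusted p 0.0231). None of the 58 genes passed in the comparisons of the genotypes or in the interaction on either scale.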

How the data were processed

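RNA-seq of the liver immune cell fraction was analysed for 12 mice, 3 in each of 4 groups assigned from the labels. The authors sequenced stranded, random-primed total RNA as single-end reads, aligned them with STAR to mm10 and exported TPM from Qlucore. The deposited values are TPM with a floor of 1.01 and are treated here as a score on a linear scale. Whether strand was used in counting is not given in the sources used here, so overlapping genes are uncertain. The labels state 30000000 reads for each sample, the mapped depth of each library is unknown, and p-values cover the spread between these samples. In each file 6 rows without a gene name were left out. One column header shortened the genotype of Casp11-/- HFD replicate 2 in another way, and each file was assigned by its sample record. No libraries were identical (0 pairs).

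Values were tested as log2(TPM + 1) with limma 3.58.1 (a mean-variance trend) in R 4.3.3, over the 17950 genes that exceeded the floor in 3 or more of 11 libraries, with all groups in one fit. P-values are two-sided with Benjamini-Hochberg adjustment over all genes tested, at a threshold of 0.05. WT-NCD replicate 3 was left out because it stood apart from all other libraries. The rescaled values used the 12368 tested genes that RefSeq lists as protein-coding (39350 symbols matched, 21702 protein-coding). Sums, ranges and figures were made in Python 3.11.15 with pandas 2.3.3, numpy 2.4.6 and matplotlib 3.10.9.

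The 10 members were named in every comparison. Other dendritic cell genes were named where an adjusted p passed, besides a set named whatever its result (Flt3l, Itgax, Irf8, Irf4, Xcl1, Mgl2, Sirpa, Bst2, Irf7, Runx2, Bcl11a and Ccr7), and Flt3, Xcr1, Cd209a and Siglech were given their 3 nearest protein-coding genes. Members and lists were chosen with earlier results of these data known. Alternatives were the filter, the pseudocount, the scaling, the trend, the spread, the libraries fitted and a replicate block. The fit was tested on simulated data for the diet in Casp11-/- mice, with 200 of 17950 genes changed. It recovered 61% of those changed by 2 on the log2 scale and 100% of those changed by 4, with 6 unchanged genes called. Whether these rates hold for the libraries here was not tested. In these libraries, leaving out Casp11-/- NCD replicate 2 moved the genes called for that comparison from 198 to 8767.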

Additional observations from a re-analysis of the deposited data

How the results depend on the processing

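The mapped depth behind the TPM values is unknown, values at the floor may stand for any lower level, and WT-NCD rests on 2 libraries. Of the members' estimates over all alternatives, 975 kept their direction and side of the threshold, 74 changed sign and 19 became significant. Of the counts of calls, 140 stayed within 1.5 times the count reported and 76 did not. These counts hold both the genes called and the members called in each comparison. The members called were 0 as reported in every comparison, and most of them stayed at 0, which counted as staying. The 140 therefore do not show that the number of genes called was stable, and those numbers are given below. The cause of each change given here was not tested.

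The number of genes called was 391 for the diet in WT mice. It was 86 with genes above the floor in at least 1 library, 206 with no trend of the spread on the mean, 100 after rescaling, 108 after rescaling with a common floor and 22 with WT-NCD replicate 3. For the diet in Casp11-/- mice it was 198, but 1 with the floor passed in at least 1 library, 565 with the floor passed in every library, 8 with no trend, 439 and 402 after the rescalings, 348 and 314 with pseudocounts of 0.01 and 0.1, 0 with WT-NCD replicate 3 and 322 once the top 1% of genes by mean level had been removed. Over both genotypes it was 3289, but 977 with the floor passed in at least 1 library, 1696 and 1465 after the rescalings, 108 with WT-NCD replicate 3 and 1915 without the top 1%. For the genotypes on NCD it was 10, but 6 and 1 with the floor passed in at least 1 and in every library, 1 with no trend, 0 and 1 after the rescalings, 0 with the spread from the groups compared and 0 with WT-NCD replicate 3. For the genotypes on HFD it was 0, but 1 with the floor passed in every library. For the interaction it was 1, but 0 after each rescaling, 0 without the top 1%, 0 with WT-NCD replicate 3 and 2 with either pseudocount.

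Members called numbered 0 in all 6 comparisons. In WT mice 1 was called without the top 1% of genes, Tcf4 (1.26, adjusted p 0.0332), where 95 of 17541 genes were called higher. Over both genotypes 1 was called with the floor passed in every library, Flt3 (-0.95, adjusted p 0.0380), where 3600 of 10145 genes were called lower. After either rescaling 3 were called, where 921 of 12368 genes, or 701 of 11246 with the common floor, were called higher. The same 3 were called without the top 1%, Clec9a (1.14), Tcf4 (0.93) and Zbtb46 (1.02), where 845 of 17541 genes were called higher.

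Some estimates changed sign. Rescaling, without and with a common floor, gave Flt3 0.10 and 0.10 for the genotypes on NCD (0.01 without the top 1%) and 0.00 and 0.00 for the diet in WT mice, Batf3 0.29 and 0.29 in WT mice (0.22 without the top 1%), and Xcr1 0.07 and 0.07 in Casp11-/- mice (0.11 without the top 1%). Over both genotypes the rescalings gave Bst1 0.29 and 0.25, Cd209a 0.03 and 0.03, and Xcr1 0.41 and 0.41, against 0.28, 0.00 and 0.39 without the top 1%. A pseudocount of 0.01 gave Bst1 -0.01 on HFD and Zbtb46 0.00 on NCD between the genotypes. With WT-NCD replicate 3, the genotypes on NCD differed by -0.55 for Batf3, 0.63 for Flt3 and 0.18 for Xcr1, the diet over both genotypes by 0.07 for Xcr1, and the interaction was 0.11 for Batf3 and -0.30 for Zbtb46.

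Leaving out single libraries moved the genes called to between 196 and 406 in WT mice, between 26 and 8767 in Casp11-/- mice, between 564 and 8615 over both genotypes, between 5 and 169 for the genotypes on NCD and between 0 and 25 for the interaction. The highest count came without Casp11-/- NCD replicate 2 in the diet comparisons of Casp11-/- mice and of both genotypes and in the interaction, and without Casp11-/- NCD replicate 1 (169) for the genotypes on NCD. The lowest came without Casp11-/- NCD replicate 1 in Casp11-/- mice and without WT-NCD replicate 2 in WT mice and over both genotypes. Members called ranged from 0 to 3 in Casp11-/- mice and over both genotypes. For the genotypes on HFD, estimates ranged from -0.95 to 0.03 for Batf3, -0.86 to 0.62 for Bst1 and -0.21 to 0.40 for Zbtb46. For the genotypes on NCD they ranged from -0.32 to 0.46 for Batf3, -0.38 to 0.93 for Clec10a, -0.25 to 0.92 for Clec9a, -0.33 to 0.48 for Flt3, -0.62 to 1.58 for Siglech, -1.04 to 0.18 for Xcr1 and -0.52 to 0.37 for Zbtb46. For the diet in Casp11-/- mice they ranged from -0.68 to 0.81 for Bst1, -0.44 to 0.72 for Clec9a, -1.73 to 0.47 for Siglech, -0.43 to 0.35 for Tcf4 and -0.99 to 0.23 for Xcr1. In WT mice they ranged from -0.71 to 0.27 for Batf3, -0.25 to 0.28 for Cd209a, -0.26 to 0.63 for Clec10a and -0.16 to 0.28 for Xcr1. Over both genotypes they ranged from -0.74 to 0.14 for Bst1 and -0.46 to 0.14 for Xcr1, and in the interaction from -1.05 to 0.16 for Xcr1 and -0.24 to 0.68 for Zbtb46. Without 1 WT-NCD library, the other is assumed to vary like the other groups.

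Replicate numbers were not taken as pairs in the tests, and whether they stand for a pairing or a batch was not tested. Over 15 pairs of libraries with the same number in different groups, deviations from the group means correlated at -0.327 to 0.467, with 8 above 0.1. Over 30 pairs with different numbers they correlated at -0.570 to 0.466, with 10 above 0.1. Of the 11 libraries, 6 correlated best with one of their own number. With the replicate number as a block, 1136 genes were called in WT mice, 1271 in Casp11-/- mice, 6709 over both genotypes, 16 for the genotypes on NCD and 2 for the interaction. Under the block 1 member was called over both genotypes, Flt3 (-1.06, adjusted p 0.0209), the diet estimates in WT mice were -0.11 for Cd209a and -0.25 for Xcr1, and those of the genotypes on NCD were -0.27 for Batf3 and -0.34 for Zbtb46.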
